A study of Mus musculus with 24 samples.

Results

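Liver, yolk sac and endoderm genes were followed as a set of 36 genes in differentiated mouse embryonic stem (ES) cells with and without the clock repressors REV-ERBα and REV-ERBβ. Members were taken by gene symbol from a table of exon RPKM, reads per kilobase of exon and per unit of library total. All 36 symbols were among the 33079 genes of the table. A gene was called expressed when its mean exceeded 0.5 RPM, the same reads scaled to the library total alone, over the 12 time points of WT or of KO, and 35 members and 15112 genes in all met this threshold. Of the 36, 7 are endoderm regulators, 21 encode secreted plasma proteins and 8 are absorptive genes, and the member that was not expressed was the absorptive gene Fabp1.

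WT cells were the control line with the Per2::Luciferase knock-in, and KO cells were deficient for Rev-erba and Rev-erbb on the same knock-in, so that both genotypes carried the reporter. Exons of Rev-erbb were deleted first with CRISPR/Cas9, colonies were picked, and Rev-erba was then deleted in a Rev-erbb-deficient line, and loss of the genes and any other difference between the lines therefore cannot be told apart. Cells of both genotypes received 100 nM dexamethasone, which synchronizes clocks through the glucocorticoid receptor, at day 28 of differentiation from embryoid bodies, and RNA was collected every 4 h from 12 to 56 h afterwards. For each of the 24 libraries RNA of 3 embryoid bodies was pooled, with 1 library for each genotype and time point. No time point has a replicate, and an SD over the 12 libraries of a genotype holds both change over time and differences between pools.

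The visceral endoderm of the yolk sac and the liver share a large part of their secretory program. Both make alpha-fetoprotein, transthyretin, retinol-binding protein, apolipoproteins, transferrin and clotting factors, and transcription factors of the FOXA, GATA, HNF4 and HNF1 families are known activators of such genes. Visceral endoderm and kidney tubule also take up proteins through cubilin, amnionless and megalin, with the adaptor DAB2, whereas FABP2 and villin are typical of the absorptive cells of the gut.

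Promoter sequences are shown for 4 members, because HNF1 sites are a known feature of liver and yolk sac promoters and because the first 3 of these genes rose and fell together between libraries while the 4th did not. Each is the stretch of 150 bases before the RefSeq start, 5′ to 3′ on the strand of the gene, in build GRCm38.p6, with a match to GTTAATNAT or its core GTTAAT on either strand in capitals. Afp is on the plus strand at chr5:90490564-90490713, Fga on the plus strand at chr3:83026003-83026152, Fgb on the minus strand at chr3:83049864-83050013 and Alb on the plus strand at chr5:90460720-90460869.
Afp: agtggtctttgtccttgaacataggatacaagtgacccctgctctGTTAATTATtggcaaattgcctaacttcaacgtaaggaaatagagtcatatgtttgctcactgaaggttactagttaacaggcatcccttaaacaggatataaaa
Fga: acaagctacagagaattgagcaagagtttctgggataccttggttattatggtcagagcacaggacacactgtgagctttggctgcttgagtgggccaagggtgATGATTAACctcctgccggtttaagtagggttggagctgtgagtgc
Fgb: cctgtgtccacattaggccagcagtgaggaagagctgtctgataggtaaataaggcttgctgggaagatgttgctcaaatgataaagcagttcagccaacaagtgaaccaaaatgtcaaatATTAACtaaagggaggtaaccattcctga
Alb: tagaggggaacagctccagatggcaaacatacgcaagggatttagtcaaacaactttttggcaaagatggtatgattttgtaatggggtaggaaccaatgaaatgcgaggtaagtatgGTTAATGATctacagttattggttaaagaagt

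RefSeq promoters, 300 bases from 250 before the start to 50 after it, were at hand for 29 of the 36 members. The longer motif GTTAATNAT, which contains GTTAAT, was found in 3 of 17 plasma protein genes with a promoter (Afp, Alb and Fga) and in 0.801% of all 32851 promoters. The core GTTAAT was found in 11 of 29 members and in 7.10% of all promoters. It was found in Afp, Fga, Fgb and F2. It was absent from Fgg, Cubn, Amn, Apoa1, Apoa2, Apob, Apom and Rbp4, which also followed Afp in both genotypes (below). The other members with the core were Alb, Apoc2, Apoe, Cdx2, Foxa2, Dab2 and Fabp1. The FOXA motif TGTTTAC was found in 6 of 29 members against 3.65% of all promoters, the GATA motif AGATAA in 3 of 29 against 11.2%, the HNF4 motif CAAAGTCCA in 0 of 29 against 0.475% and TAGGTCA, the element bound by REV-ERBs, in 2 of 29 against 2.61%. Some members had several promoters, and a match in any of them was counted; over their 36 promoters the longer motif was found in 3 and the core in 11. A match describes the letters in this window and is not a measured binding site.

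Between 6183500.5 and 10287969 fragments per library lay on exons, and the 36 members together made up 612 to 2069 RPKM in a library. The label of the set was checked against marker lists. All 10 markers of visceral yolk sac endoderm were expressed, and their summed level ran from 136 to 1096 RPKM in WT and from 139 to 1098 RPKM in KO. This list is not independent of the set, since 8 of the 10 are members. The 2 that are not, the tight junction gene Cldn2 and the homeobox gene Rhox5, had WT means of 21.5 and 5.53 RPKM and KO means of 26.3 and 5.91 RPKM. Neither followed Afp closely between libraries. The Pearson r with Afp was -0.016 in WT and -0.025 in KO for Cldn2, and 0.21 and 0.24 for Rhox5. Of 13 hepatocyte markers 6 were expressed, with sums of 29.8 to 66.2 RPKM in WT and 34.7 to 63.7 RPKM in KO, most of it from the urea cycle enzyme Arg1 (means of 24.1 and 37.4). Other hepatocyte markers were near 0: Cyp7a1, the rate-limiting enzyme of bile acid synthesis, had WT and KO means of 0.00408 and 0.00201 RPKM, and Ugt2b1, Cyp3a11, Cyp2e1, Tat, G6pc and Asgr1 were not expressed either. Of 6 kidney tubule markers only Slc5a2 was expressed, and Kap was listed at 0 in all 24 libraries. Intestinal markers were expressed for 7 of 9, the exceptions being Sis and Cdx1.

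The most abundant member was Apoe, a lipid carrier made by many cell types, with 491 ± 66.4 RPKM in WT and 457 ± 69.9 RPKM in KO (mean ± SD, n = 12 libraries each). Afp, the main serum protein of the fetus, followed with 165 ± 219 RPKM and 174 ± 233 RPKM. The high-density lipoprotein gene Apoa1 stood at 114 ± 65.6 and 90.1 ± 67.8 RPKM, the iron carrier Trf at 76.4 ± 66.8 and 104 ± 104 RPKM, and Apoa4 at 65.4 ± 37.1 and 41.1 ± 24.4 RPKM. Afp, Apoa1, Trf and Apoa4 each lie within 1 SD of the next in WT, so their order is not resolved. Ttr, which carries thyroxine and retinol-binding protein, stood at 34.3 ± 20.6 and 28.3 ± 28.8 RPKM, next to the endocytic adaptor Dab2 at 31.1 ± 2.97 and 28.0 ± 3.28 RPKM. Among the regulators Gata6, which specifies primitive endoderm, was the highest at 22.6 ± 1.66 and 18.6 ± 1.31 RPKM, followed by Gata4 at 4.75 ± 0.478 and 3.79 ± 0.476 RPKM. The pioneer factors Foxa1, Foxa2 and Foxa3 had WT means of 2.17, 1.02 and 0.403 RPKM. Sox17, an early endoderm factor, had 0.649 RPKM in WT, and the caudal homeobox gene Cdx2 had 1.21 RPKM. Albumin itself was modest, the Alb means being 6.41 ± 6.25 and 5.90 ± 3.58 RPKM.

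Plasma protein genes differed between libraries of the same genotype far more than most genes did. Afp ran from 12.0 RPKM (28 h) through a median of 73.6 RPKM to 727 RPKM (16 h) in WT, and from 16.6 RPKM (40 h) through 70.6 RPKM to 686 RPKM (16 h) in KO. In WT the high libraries were those of 16 h, 36 h (464 RPKM), 32 h (214 RPKM) and 52 h (195 RPKM), and in KO those of 16 h, 56 h (594 RPKM) and 24 h (329 RPKM), so the genotypes overlapped over nearly the whole range. The level fell from 464 to 20.8 RPKM between the WT pools of 36 and 40 h, which were different embryoid bodies. The 3 highest libraries held 71.1% of the summed Afp level of WT and 76.8% of that of KO.

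**Figure D1:**
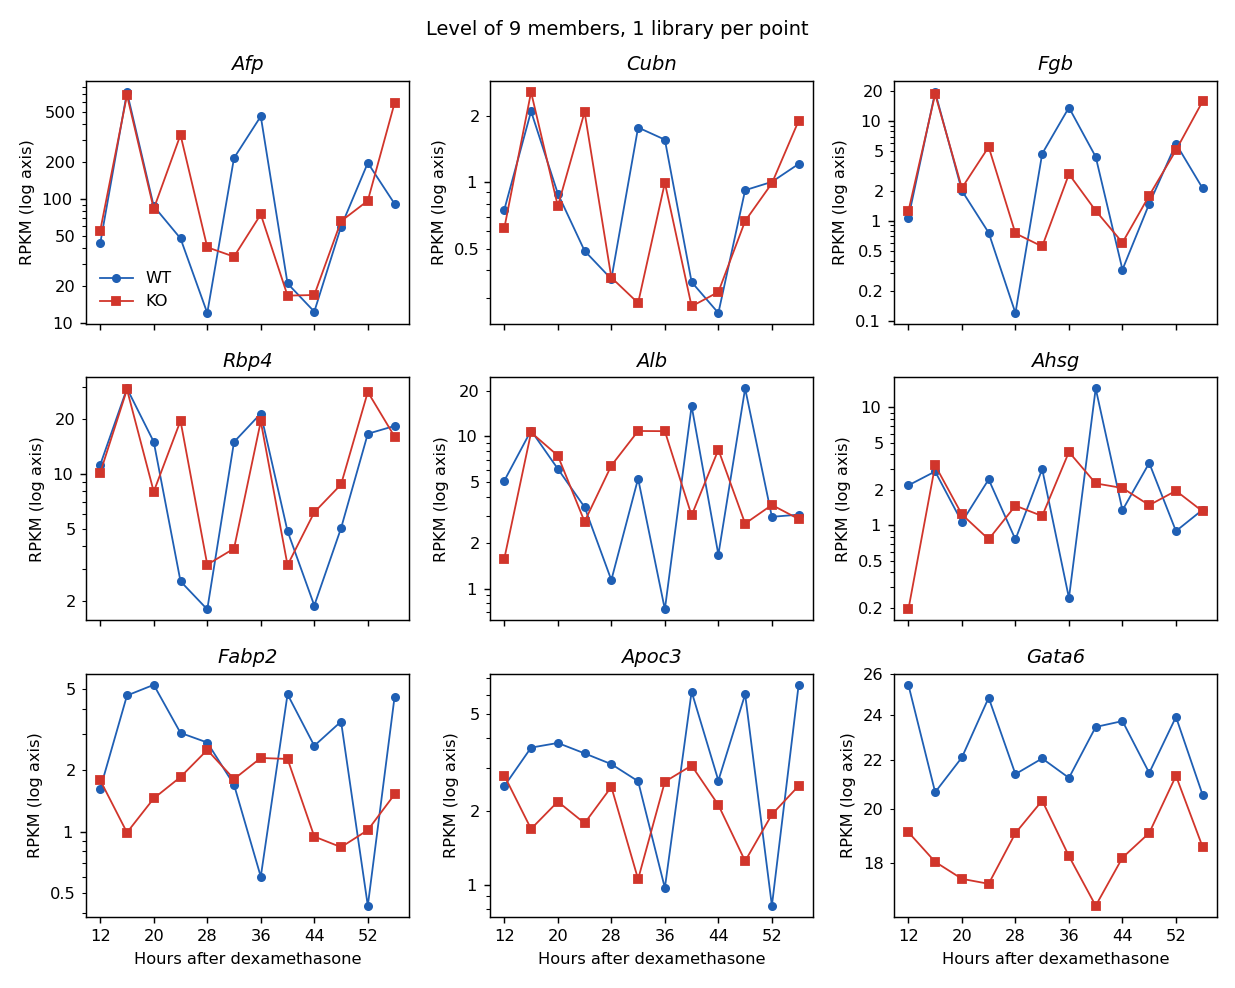
RPKM on a log axis against hours after dexamethasone for 9 members, with 1 library per point (blue circles WT, red squares KO). Afp, Cubn, Fgb and Rbp4 are highest at 16 h in both genotypes and share most of their high and low libraries. Exceptions are Rbp4 at 52 h in KO (28.2 RPKM, Afp 96.7 RPKM) and Fgb at 40 h in WT (4.39 RPKM, Afp 20.8 RPKM). Alb and Ahsg peak in other libraries, and Fabp2 and Apoc3 drop at 36 and 52 h in WT. Gata6 stays between 16.5 and 25.5 RPKM with KO under WT at each of the 12 time points.

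The same spread was measured for every member as the SD of log2(RPKM + 0.1) over libraries of a genotype. The median SD of all expressed genes was 0.14, and 99 genes, 0.655% of those expressed, had an SD above 1, among them 15 of the 35 members. Apom, which carries sphingosine 1-phosphate, had an SD of 2.58 and Apoa2 of 2.34. Apom went from 0 RPKM in the WT library of 28 h to 10.4 RPKM in that of 16 h, and Apoa2 from 0.170 to 39.7 RPKM in WT. By role, the median SD was 1.22 over the 21 plasma protein genes, 0.46 over the 7 absorptive genes and 0.40 over the 7 regulators. None of the regulators had an SD above 1, and Gata6 and Gata4 had SDs of 0.10 and 0.17. The steadiest plasma protein gene was Apoe with an SD of 0.21, and the steadiest absorptive gene was Dab2 with 0.15. In RNA from whole pools, fewer cells of a type and less RNA per cell cannot be told apart.

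**Figure D2:**
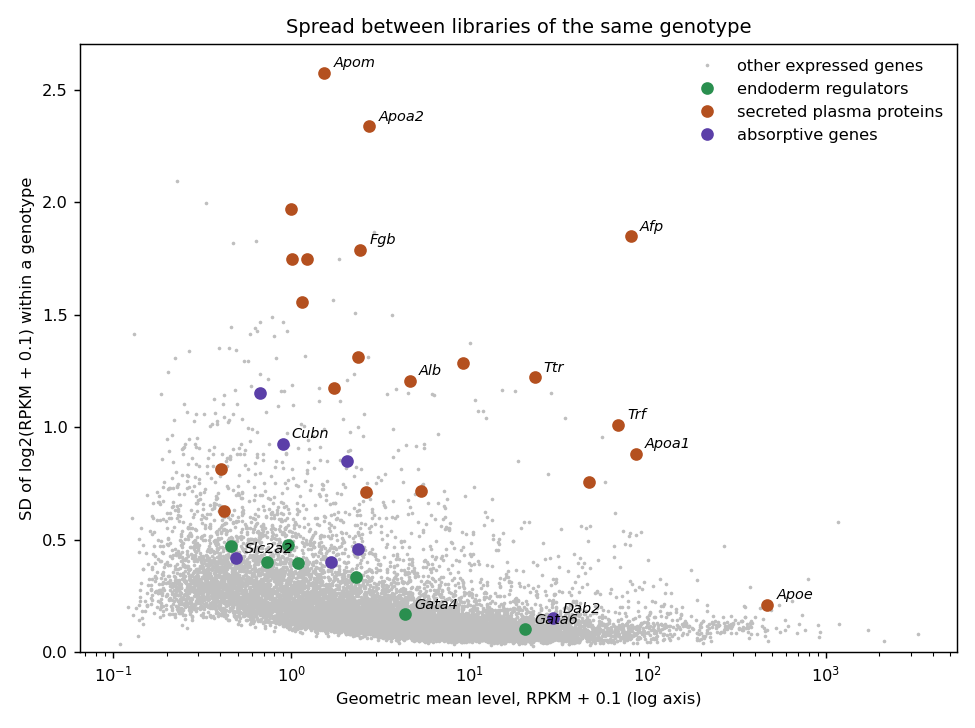
SD of log2(RPKM + 0.1) within a genotype against the geometric mean level (log axis) for all 15112 expressed genes in grey, with regulators in green, plasma protein genes in orange and absorptive genes in purple. Most plasma protein genes lie above the grey cloud at their level, up to 2.58 for Apom, whereas Gata6, Gata4 and Dab2 lie within it. Apoe is at percentile 94.6 for SD among 92 genes of like level.

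Members that varied most varied together. Cubn, the receptor cubilin, had the closest relation to Afp, with a Pearson r of 0.942 and Spearman rho of 0.951 over the 12 WT libraries (permutation p = 3e-05 and 1e-05, adjusted over all 15111 other expressed genes 0.0907 and 0.0504). In KO the values were 0.964 and 0.965 (permutation p = 1e-05 for both, the smallest that 100000 permutations can give, adjusted 0.0252 and 0.0378). Without the 2 libraries farthest from the median of Afp, 16 and 36 h in WT and 16 and 56 h in KO, the r of Cubn was 0.927 and 0.952. Cubn itself spanned 0.256 to 2.09 RPKM in WT and 0.275 to 2.56 RPKM in KO.

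An r above 0.7 with Afp, a limit chosen after the values were seen, was reached in WT by 13 of the 34 other expressed members and by 0.88% of all expressed genes, and in KO by 17 of 34 members and 0.933% of genes. The 13 WT members were all among the 17 of KO, which is 100% of the WT list and 76.5% of the KO list. They were the 3 fibrinogen genes Fga, Fgb and Fgg, the clotting and kinin genes F2 and Kng1, the lipid carriers Apoa1, Apoa2, Apob and Apom, the retinol carrier Rbp4, Trf, and the partners Cubn and Amn of the cubilin receptor. Their r ran from 0.759 (Apoa1) to 0.942 in WT and from 0.745 (Apom) to 0.964 in KO. Without the 2 farthest libraries it ran from 0.549 to 0.927 and from 0.541 to 0.952, with Apoa1 the lowest in both, and 7 of the 13 genes still exceeded 0.7 in both genotypes, namely Apoa2, Apob, Apom, Cubn, F2, Fgb and Rbp4. In that setting 9 of 34 members exceeded 0.7 in WT and 13 in KO, against 1.2% and 1.18% of all genes. After adjustment over all genes, no gene passed in WT by Pearson or by Spearman permutation tests, and in KO 7 genes (0.0463%) passed by Pearson, 3 of them the members Cubn, F2 and Ttr, and 4 genes (0.0265%) by Spearman, of which Cubn was a member. At an unadjusted p under 0.05 the members were 16 of 34 by Pearson and 17 by Spearman in WT, against 5.02% and 5.47% of all genes, and 19 and 17 in KO, against 4.76% and 4.29% (permutation tests).

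Of Afp and these 13 genes, 13 of 14 were highest at 16 h in WT and 11 of 14 at 16 h in KO. The lowest WT library was 28 h for 8 of the 14 genes and 44 h for 5. Fgb, the fibrinogen beta chain, spanned 0.119 (28 h) to 19.6 RPKM (16 h) in WT and 0.554 (32 h) to 18.6 RPKM (16 h) in KO. Rbp4 spanned 1.80 to 29.5 RPKM in WT and 3.15 to 29.1 RPKM in KO. The 3 fibrinogen chains, which lie side by side on chromosome 3, tracked each other with r of 0.948 to 0.976 over the 24 deviations from genotype means, and Rbp4 tracked Apom with r of 0.941. The 4 members past 0.7 in KO alone were Ttr (0.593 in WT, 0.934 in KO), Apoc2 (0.530 and 0.847), Lrp2, which encodes megalin (0.680 and 0.807), and Dab2 (0.405 and 0.804), and the difference between the genotypes in r was not tested.

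**Figure D3:**
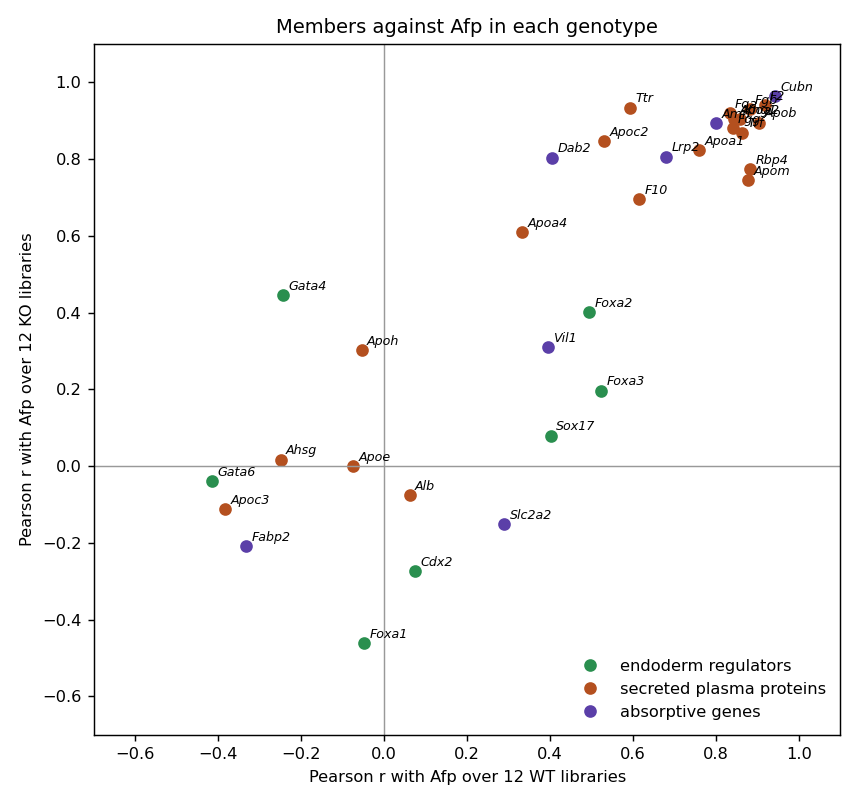
Pearson r of each of 34 members with Afp over 12 WT libraries (horizontal) and over 12 KO libraries (vertical), coloured by role. Cubn, F2, Apob and the fibrinogen genes sit at the upper right, Ttr is at 0.593 and 0.934, and the regulators, Alb, Ahsg, Apoe, Apoc3 and Fabp2 sit below 0.7 on both axes.

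Over all 12 libraries no regulator reached that limit in either genotype. Sox17 had an r of 0.401 in WT and 0.0792 in KO, but without the 2 farthest libraries 0.872 in WT, second among the members to Cubn, and -0.00443 in KO. Foxa2 had an r of 0.495 in WT and 0.401 in KO, Foxa3 of 0.524 and 0.197, Gata4 of -0.245 and 0.445, and Gata6 of -0.415 and -0.0399. Outside the set, the nuclear receptor Hnf4a had 0.557 and 0.604, not past adjustment in either genotype. The 5 genes outside the set with a mean of at least 1 RPKM whose deviations followed Afp most closely over 24 libraries were Spp2 (r = 0.964), Pdzk1 (0.882), Gipc2 (0.819), Reep6 (0.817) and Cfi (0.810). Spp2 encodes a secreted phosphoprotein and Cfi a complement protease, and Spp2 ran from 0.376 to 27.5 RPKM.

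Several plasma protein genes followed other libraries than Afp did. Albumin is the neighbour of Afp on chromosome 5 (Alb at chr5:90460870-90476602, Afp at chr5:90490714-90508907 in GRCm38), yet the r between them was 0.0609 in WT and -0.0755 in KO. Alb was lowest at 0.729 RPKM in the WT library of 36 h, where Afp stood at 464 RPKM, and highest at 20.7 RPKM in that of 48 h, where Afp stood at 59.8 RPKM. Its promoter holds the longer HNF1 motif as that of Afp does.

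Ahsg, the fetal serum protein fetuin-A, followed Alb in WT with r = 0.830 and rho = 0.853 (permutation p = 0.0007 and 0.00098, adjusted 0.505 for r) and in KO with r = 0.655 and rho = 0.455 (adjusted p = 1 for r, by permutation). Ahsg was 0.242 RPKM in the WT library of 36 h and 14.5 RPKM in that of 40 h, the highest of all 24 libraries. Apoh, which binds phospholipids in plasma, was also highest in the WT library of 40 h at 2.34 RPKM, as was Fabp1, the liver fatty acid-binding protein, at 2.995 RPKM. Fabp1 averaged 0.884 in WT and 0.252 in KO and did not pass the expression threshold, so it was left out of the main tests. Without a filter on low values, where Fabp1 was tested, 3 members instead of 2 were lower in KO by limma. No other member gained a call in that setting. The level of Fabp1 was low, with means of 7.4 fragments in WT and 2.1 in KO.

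A further pattern was seen for Fabp2 and Apoc3 in WT. Fabp2, the intestinal fatty acid-binding protein, fell to 0.602 RPKM at 36 h and 0.434 RPKM at 52 h in WT, where the other 10 libraries had 1.62 to 5.25 RPKM, and Apoc3, an inhibitor of lipoprotein lipase, fell to 0.971 and 0.821 RPKM in the same libraries. Their r was 0.930 in WT (rho = 0.909, permutation p = 6e-05 and 0.00014, adjusted 0.252 for r) and 0.725 without those 2 libraries, and 0.485 in KO. Apoa1, Apoc3 and Apoa4 lie in a single cluster on chromosome 9 within chr9:46228630-46243458, and their r with Afp in WT was 0.759, -0.384 and 0.332. Genes outside the set that followed Fabp2 most closely were Cdhr5, Prap1, Rbp2, Cps1 and Slc3a1, with r of 0.769 to 0.843 over the 24 deviations.

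**Figure D4:**
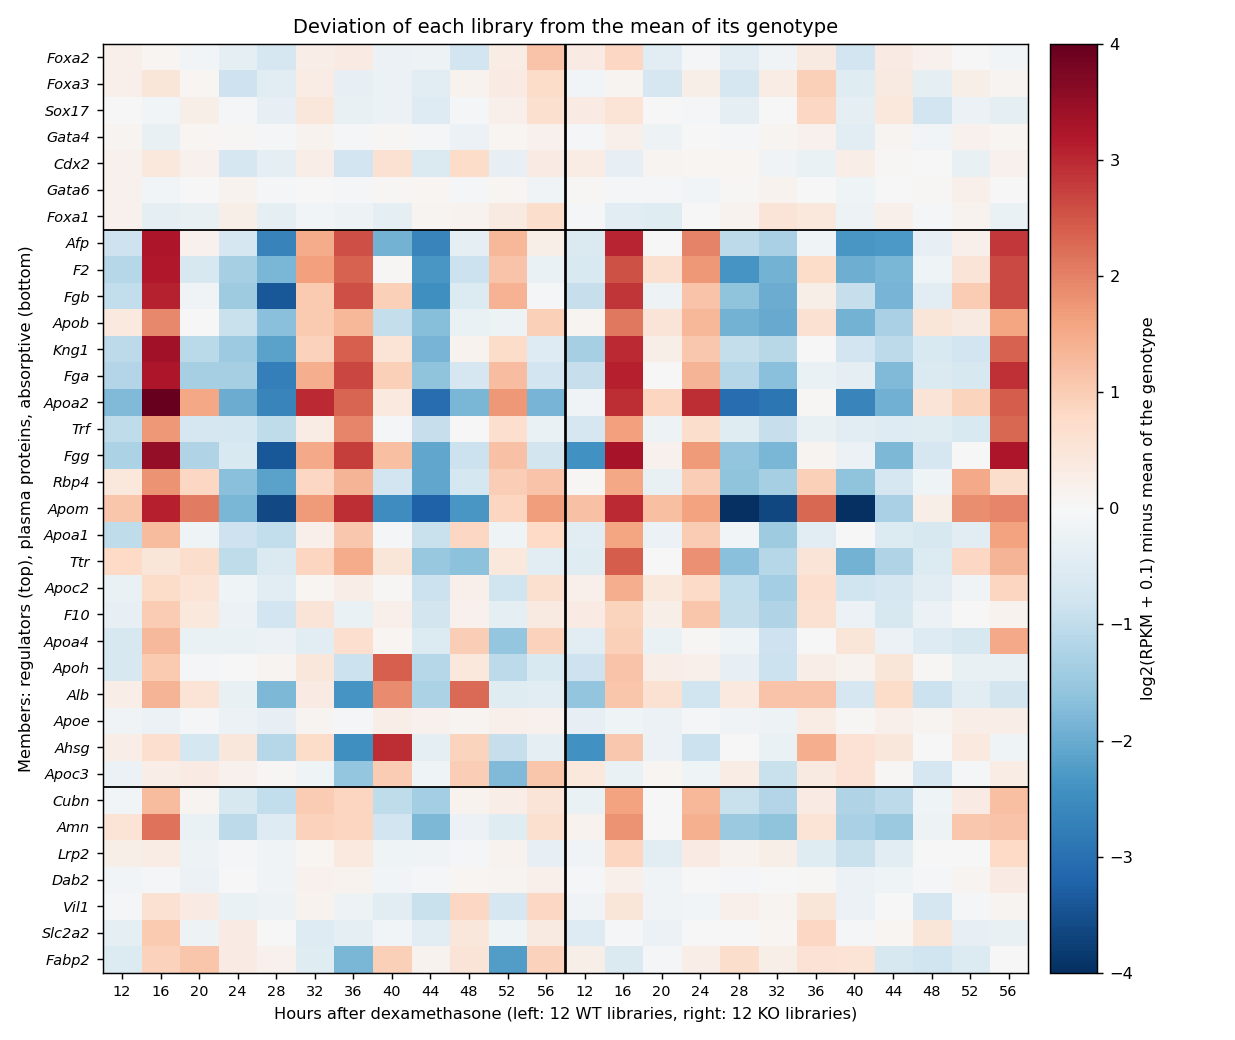
Deviation of log2(RPKM + 0.1) from the mean of the genotype (colour, red higher and blue lower) for 35 expressed members (rows, grouped by role and ordered by their r with Afp) in 12 WT libraries on the left and 12 KO libraries on the right, by hours after dexamethasone. A block of plasma protein genes with Cubn and Amn is red at 16 h in both genotypes, at 32 and 36 h in WT and at 24 and 56 h in KO, and the regulators at the top stay pale.

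The comparison of KO with WT asks whether loss of Rev-erba and Rev-erbb changed the level of these genes. By limma over all expressed genes with Benjamini-Hochberg adjustment, 26.3% of genes passed an adjusted p of 0.05, 11.5% higher and 14.7% lower in KO. Of the 35 members 3 passed, 1 higher and 2 lower, and the median difference of the members was a log2 of -0.17 against -0.01 over all genes. The estimate lay below 0 for 24 of the 35 members and for 8179 of all 15112 expressed genes. Many members rose and fell together between libraries, so this count is not a test of the set.

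The 2 lower members were the GATA factors. Gata6 had 20.5 (56 h), 22.1 and 25.5 RPKM (12 h) as lowest, median and highest in WT and 16.5 (40 h), 18.4 and 21.3 RPKM (52 h) in KO. All but 1 of the 12 KO libraries were below the lowest WT library, and KO was lower at 12 of 12 time points. The difference was -0.28 on the log2 scale (SE 0.041, limma adjusted p = 2.79e-05), and it passed in every one of 37 alternative settings. Gata4, a partner of Gata6 in endoderm and heart, had 3.83 (16 h), 4.93 and 5.38 RPKM (56 h) in WT and 2.79 (40 h), 3.89 and 4.36 RPKM (16 h) in KO. Here 6 KO libraries were below all WT libraries, and KO was lower at 11 of 12 time points, with a difference of -0.32 (SE 0.066, limma adjusted p = 0.000885).

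Heart cells also use both GATA factors. The cardiac markers Myh6, Myh7, Actn2 and Nkx2-5 were higher and Tnnt2 was lower in KO, 5 of 5 past the limma threshold, with sums of 41.4 to 69.6 RPKM in WT and 44.2 to 81.4 RPKM in KO. Markers of parietal endoderm, another GATA6 lineage, changed in both directions (Lama1 lower, Thbd higher, 2 of 5 called), with sums of 2059 to 2448 RPKM in WT and 2053 to 2517 RPKM in KO. Their part in the result was not tested.

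No other regulator passed in the main fit. Cdx2 had 0.625 (36 h), 1.28 and 1.95 RPKM (48 h) in WT and 0.650 (16 h), 0.881 and 1.06 RPKM (12 h) in KO, so the KO libraries lay within the range of WT. Its difference was -0.39 (SE 0.15, limma adjusted p = 0.0579), and with the time point as a block in limma it passed (adjusted p = 0.0378). Foxa1, Foxa2, Foxa3 and Sox17 had differences of 0.13, -0.29, -0.12 and -0.01, with 95% intervals that included 0.

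Of the 21 plasma protein genes 0 passed the limma threshold in the main fit, against 26.3% of all genes. Only 1, Apoa4, had an unadjusted p under 0.05 by limma, against 38% of all genes. Apoa4, which coats intestinal and yolk sac lipoproteins, had 19.5 (52 h), 47.8 and 139.6 RPKM (16 h) in WT and 20.7 (32 h), 31.8 and 104.8 RPKM (56 h) in KO. The ranges overlapped, but KO was lower at 11 of 12 time points, and the difference was -0.63 (SE 0.29, limma adjusted p = 0.105). With the time point as a block in limma, Apoa4 passed (adjusted p = 0.00849). Apoc3 had a difference of -0.54 (SE 0.27, limma adjusted p = 0.145) and passed in 3 of 37 alternative settings. Estimates for the 21 genes ran from -0.63 to 0.59 and were below 0 for 12, against 8179 of all 15112 expressed genes. The spread between libraries set wide limits: the 95% interval was -1.33 to 1.56 for Afp, -0.73 to 1.16 for Alb, -1.57 to 0.34 for Ttr and -1.43 to 2.60 for Apom on the log2 scale. For Apoe it was -0.28 to 0.06. Ttr is also made by choroid plexus, whose markers were expressed for 5 of 7, 3 of them lower in KO, with sums of 20.9 to 25.3 RPKM in WT and 13.6 to 21.7 RPKM in KO; the choroid plexus genes Kl and Kcne2 were near 0, and the part of this tissue was not tested.

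Among the 7 absorptive genes 1 passed, against 26.3% of all genes. Slc2a2, the glucose transporter GLUT2, had 0.184 (32 h), 0.269 and 0.747 RPKM (16 h) in WT and 0.300 (12 h), 0.468 and 0.911 RPKM (36 h) in KO. The genotypes overlapped, KO was higher at 10 of 12 time points, and the difference was 0.50 (SE 0.16, limma adjusted p = 0.0244). The level was low, with as few as 7.5 fragments in a library, and with 12 of the 24 libraries the difference was 0.33 over 12 to 32 h (limma adjusted p = 0.409) and 0.67 over 36 to 56 h (0.0566). Gata4 likewise had a difference of -0.31 over the later libraries alone (limma adjusted p = 0.0607).

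The endocytic genes Dab2 and Lrp2 had differences of -0.15 (SE 0.058, limma adjusted p = 0.0531) and -0.36 (SE 0.15, 0.0861), and Cubn and Amn of -0.08 and -0.20. Dab2 had 26.3, 30.5 and 35.8 RPKM in WT and 23.8, 27.1 and 35.2 RPKM in KO, where it was the lower at 11 of 12 time points. Dab2 is also a macrophage gene, and 3 of 5 macrophage markers were higher in KO, with sums of 407 to 654 RPKM in WT and 479 to 702 RPKM in KO. The part of macrophages was not tested. Fabp2 and villin (Vil1) had differences of -0.63 and -0.38 (limma adjusted p = 0.158 and 0.113).

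The number of lower members depended on single libraries. Without 1 library it rose to 4 for WT at 28, 36 or 44 h and for KO at 16 h, to 5 without KO at 56 h and to 6 without WT at 52 h, the library in which Fabp2, Apoc3 and Apoa4 were lowest in WT. With the log2 level of Afp as a covariate, a setting added after the data were seen, 4 members were lower, Gata6, Gata4, Dab2 (-0.16, limma adjusted p = 0.0157) and Lrp2 (-0.38, 0.016), and Slc2a2 was still the 1 higher.

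**Figure D5:**
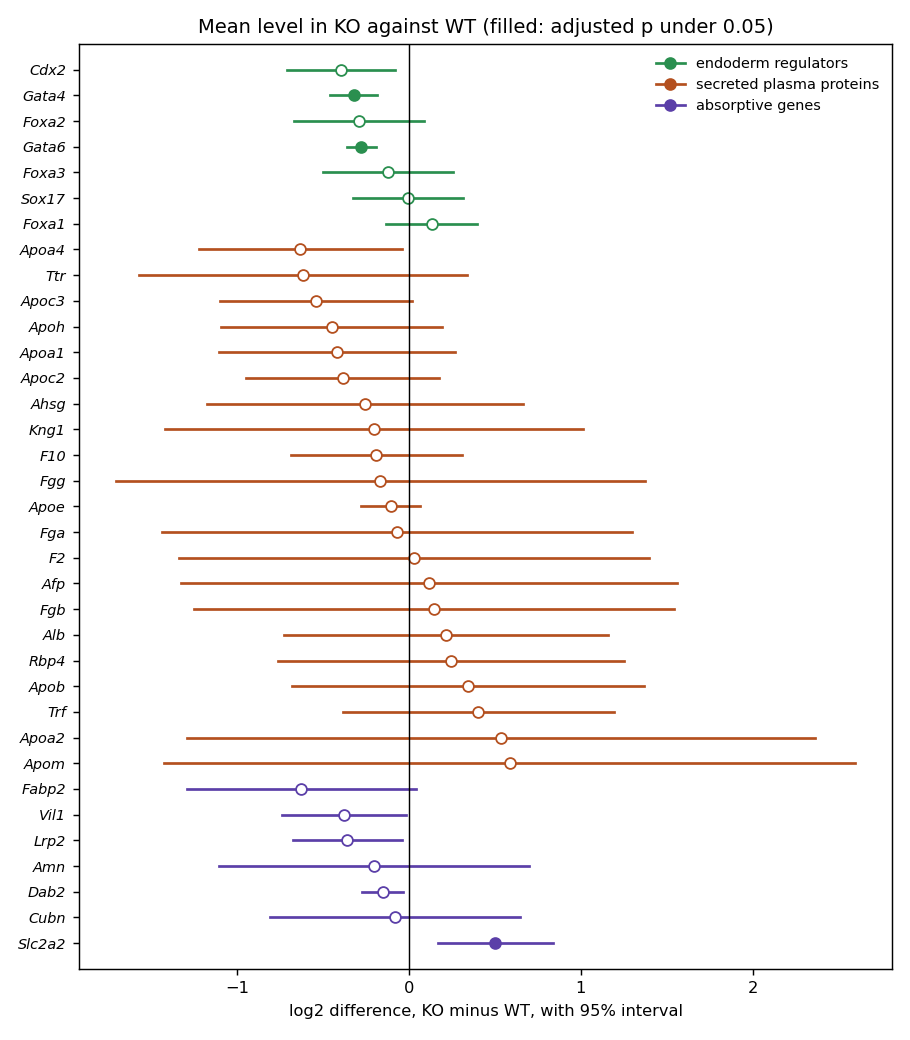
Difference KO minus WT in log2(RPKM + 0.1) with 95% intervals for 35 expressed members, by role, with filled points for an adjusted p under 0.05. Only Gata6 (-0.28), Gata4 (-0.32) and Slc2a2 (0.50) are filled, and the intervals of Afp, Apoa2, Apom and the fibrinogen genes extend past 1 in both directions.

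Other genes of the same roles were read from the same fit, where 26.3% of all expressed genes passed. Of 13 further expressed regulators 5 passed: Onecut1 (HNF6) rose from 0.206 to 0.451 RPKM (0.84, SE 0.12, limma adjusted p = 2.61e-05), Onecut2 by 0.78 and Hhex by 0.48, Cebpa rose by 0.14, and Nr1h4 was lower at -0.44. The regulator Hnf4a (1.96 RPKM in WT and 1.55 RPKM in KO) had a limma adjusted p of 0.242. Of 22 further expressed plasma protein genes 7 passed, 2 higher and 5 lower, with the complement protein C3 falling from 346 to 218 RPKM (-0.70, SE 0.18), angiotensinogen Agt rising by 0.56, haptoglobin Hp rising by 0.65 and heparin cofactor Serpind1 at -0.37. The other lower genes, named after their values were seen, were Igfbp1, Itih4 and Mttp, whereas Cp did not pass (0.434). Of 20 further yolk sac and gut absorption genes 4 passed, with Anpep (aminopeptidase N) at -0.66, Muc13 at -0.86, Slc39a8 at -0.18 and Cldn2 at 0.29, while Spink1 had an adjusted p of 0.612.

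Whether members cycled was asked with a cosine of a 24 h period beside a linear trend in each genotype. No member passed in WT, where 0.0397% of genes did, in KO, where 0.0794% did, or in the difference between the genotypes, where 0% did (limma F tests, adjusted p under 0.05). The spread between libraries limited this test. Fitted amplitudes on the log2 scale were 1.95 for Apom, 1.60 for Fgb and 1.16 for Rbp4 in WT, and 0.41, 0.27 and 0.08 in KO. Even the larger ones were not called, so the lack of a call does not show that these genes lack a rhythm. At an unadjusted p under 0.05 the members were 1 of 35 in WT (Foxa2, p = 0.0269 by limma), 0 in KO and 0 in the difference, against 8.23%, 8.39% and 4.93% of all genes. With a period of 20 h, tried after the data were seen, 15 members in WT and 3 in KO had an unadjusted p under 0.05, against 9.46% and 6.8% of genes, and no member passed adjustment, as 0.00662% of genes in WT and 0% in KO did. Rbp4 had the smallest of these values in WT (limma adjusted p = 0.418). Most of the 15 were Afp and genes that followed it. They rose and fell in largely the same libraries, so they are not independent results.

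A linear trend over time was called for 2.89% of genes in WT (1.38% rising) and 3.14% in KO (1.77% rising), and Apoe was the 1 member called in each. Apoe had 391 (28 h), 497 and 589 RPKM (40 h) as lowest, median and highest in WT and 359 (12 h), 448 and 558 RPKM (36 h) in KO, with the lower values in the earlier libraries. It rose by 0.31 per 24 h in WT (SE 0.065, limma adjusted p = 0.0118) and by 0.35 in KO (SE 0.065, adjusted p = 0.00527). No gene was called for a difference in trend between the genotypes (0%), and of the members 0 had an unadjusted p under 0.05, against 6.5% of all genes by limma.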

How the data were processed

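RNA-seq libraries from 12 WT and 12 KO time points were analysed. According to the study's methods and the submitters' processing notes, the authors used Trimmomatic 0.36 on 101-bp paired-end reads, STAR 2.5.4b for mapping to GRCm38, a minimum mapping quality of 10, and HOMER for counting on exons. The deposited values are RPKM, normalized by the authors to exonic length and library total. The library kit does not mark strand, so overlapping and antisense genes share reads. RPKM turned back into fragments gave multiples of 0.5 (tolerance 0.01) for 100% of values, and these describe depth only. Tests were run with limma 3.58.1 (R 4.3.3) on values of log2(RPKM + 0.1), which understates changes of low genes, with Benjamini-Hochberg adjustment over all 15112 expressed genes and a threshold of 0.05. P-values measure only the spread between these libraries. Correlations used 100000 two-sided permutations (Python 3.11.15, scipy 1.17.1), and they and the fits were tested on simulated data. The members and lists were chosen with earlier results of these data known. All members were named. From each further list, the 3 highest genes, the 3 with the smallest adjusted p among those called, and Hnf4a were named, with the 5 genes most like Afp; 1 further gene of the rule is not reported here. Genes named beside Alb and Fabp2, and other marker genes, were chosen after their values were seen. Alternatives were the pseudocount (1 or 0.01), filters, scaling, the time point as a block, rhythm covariates, periods of 22 and 26 h, early or late libraries and each library left out. Added later were Afp as a covariate, a 20 h period, Alb and Fabp2 as references, and counts of r without the 2 farthest libraries.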

Additional observations from a re-analysis of the deposited data

How the results depend on the processing

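No member changed direction while called, and Gata6 passed in each of 37 alternatives. Of 413 member values under settings other than a left-out library, 403 kept their direction and side of the threshold, 3 lost the call and 7 gained it, and of 840 with 1 library left out 821 kept it and 19 gained it. A minimum of 1 RPKM left 0 members higher, since Slc2a2 was then not tested. Libraries of 12 to 32 h alone gave 614 genes higher and 717 lower, with 0 members higher and 3 lower. The 3 were the GATA factors and Apoc3 (-0.69, limma adjusted p = 0.0404). Libraries of 36 to 56 h alone gave 1022 genes higher and 1050 lower, with 0 members higher and 1 lower. With Afp as a covariate 4 members were lower. With each library left out in turn, genes called higher ranged from 1506 to 1951 and lower from 1939 to 2273, members higher stayed at 1 and members lower ranged from 2 to 6. WT and KO share time points but not cells. The deviations of same-time libraries correlated by 0.163 on average (-0.175 to 0.389), and 7 of 12 pairs exceeded 0.1. Of the 24 libraries, 8 correlated best with the library of their own time point in the other genotype. With the time point as a block, 1960 genes were higher and 2414 lower, and 5 members were lower, Dab2 (limma adjusted p = 0.00662), Cdx2 (0.0378) and Apoa4 (0.00849) besides the GATA factors. Members called for a rhythm or trend stayed at 0 and 1 in each alternative run. Members with an unadjusted p under 0.05 for a rhythm in WT went from 1 at 24 h to 15 at 20 h. Most of these 15 were Afp and genes that followed it. Genes called for a rhythm went from 6 to 1 in WT and from 12 to 0 in KO. Members with r above 0.7 with Afp in both genotypes went from 13 to 7 without the 2 farthest libraries, a count added after the data were seen. The limits are 1 pool per time point and genotype, a single line per genotype, and low counts for Amn, Apoh, F10, Foxa3, Fgg, Apom and Slc2a2. Other members were low in single libraries, with as few as 2 fragments for Apoa2, 3 for Fgb, 3.5 for Fga and 4 for F2.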
